A study of Mus musculus with 2931 samples.

Results

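Early Car4- capillaries are the capillary endothelial cells of the newborn mouse lung that carry this subtype label in the submitters' cell annotation. The members were all cells with that label, whatever their mouse, age or treatment, and they made up 841 of the 2931 endothelial cells in the series, or 28.7%. Lung capillaries hold an abundant general type, which expresses the apelin receptor and Kit and renews the capillary bed, and a larger, sparser type that carries carbonic anhydrase 4 (Car4) and spreads over the gas-exchange surface. General capillary cells carry GPIHBP1, which holds lipoprotein lipase on the vessel wall, and PLVAP, which forms the diaphragms of caveolae and fenestrae. Around birth the capillary bed grows fast while alveoli form, and high oxygen during this time damages it.

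The study sorted single cells from distal lung and sequenced each with a plate-based Tn5 transposase method. The 5 groups were E18.5 (embryonic), postnatal day 1 (P1), day 7 (P7) and day 21 (P21), all labelled as normal treatment, and P7 after hyperoxia. Each group was 1 female and 1 male mouse, so 10 mouse names in all. It is unknown if each name is a single animal or pooled animals, and the strain and the oxygen level and its duration are not given in the sources used here. No transgene, deletion or other agent is named in the labels, so the groups share no stated manipulation other than the sort. Of the Early cells, 825 came from the CD31 gate, an endothelial surface marker also known as PECAM1, 12 from the mesenchymal gate and 4 from the CD45 gate.

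The 6 mice at P1, P7 and P7 after hyperoxia held 833 of the Early cells, with 160 and 120 cells in the P1 female and male, 162 and 114 in the P7 female and male, and 151 and 126 in the hyperoxia female and male. The mouse was the replicate, and each level below is the sum of a gene's reads over the Early cells of 1 mouse per 1000000 of their reads (CPM). Reads per Early cell ran from 45579 to 2546083, with a median of 609170. The median per mouse was lowest in the P7 male, at 183072 reads, and highest in the P7 female, at 950650. No molecular identifiers were used, so reads are not independent molecules and intervals cover counting error only. CD31-gate Early cells of the 3 female and 3 male mice shared no sequencing run, so sex and run cannot be told apart, while the P7 male and the hyperoxia male were in the same run. Such cells of the P1 mice also shared no run with those of the P7 mice. How the subtype labels were made is not given in the sources used here. They rest on the expression of these cells in some form, so each comparison with another label below is a description with no test.

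From P1 to P7, Early Car4- cells were the most frequent label of the sorted endothelium, and they were nearly missing at E18.5 and P21. Their share of CD31-gate cells was 50.5% in the P1 female (159 of 315, exact 95% interval 44.8 to 56.1) and 51.7% in the P1 male (120 of 232, 45.1 to 58.3). It was 48.8% in the P7 female (156 of 320, 43.2 to 54.4) and 55% in the P7 male (110 of 200, 47.8 to 62.0). After hyperoxia it was 55.5% in the female (147 of 265, 49.3 to 61.6) and 49.6% in the male (126 of 254, 43.3 to 55.9). All 6 intervals overlapped. At E18.5 the label was on 1 of 296 cells of the female and 0 of 292 cells of the male, which allows a share of up to 1.03%. At P21 it was on 4 of 282 cells (1.42%) and 2 of 238 cells (0.840%), where most capillary cells carried the Late Car4- label instead, on 268 and 265 cells of all gates. The mean share was 52.5% ± 4.15 (SD, n = 2) after hyperoxia and 51.9% ± 4.42 (SD, n = 2) at P7 in normal air, a difference of 0.664 points (exact permutation test, two-sided, p = 0.667). P7 minus P1 was 0.775 points (exact permutation test, p = 1). With 2 mice against 2 the smallest p this test can give is 0.333, so no difference in share could be called. Leaving proliferative cells out of the denominator turned the hyperoxia difference to -0.534 points (exact permutation p = 0.667). It made P7 minus P1 8.59 points, with the P7 mice at 57.8% and 65.9% above the P1 mice at 52.6% and 53.8%, at the smallest p the exact test allows.

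**Figure D1:**
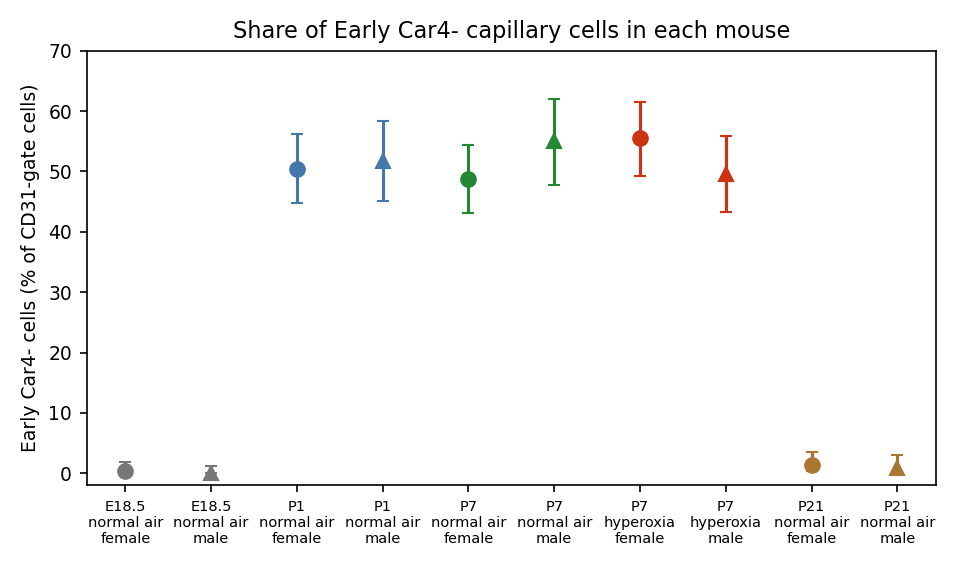
Share of Early Car4- cells among CD31-gate cells of each of the 10 mice (y axis, percent), with exact 95% binomial intervals as bars, circles for females and triangles for males. The 6 mice at P1, P7 and P7 after hyperoxia lie between 48.8% and 55.5%, and the 4 mice at E18.5 and P21 lie at or under 1.42%.

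Gpihbp1, Plvap, Kit and Aplnr are the 4 marker genes of these cells, and all were read in every mouse, which describes the label and does not test it. Gpihbp1 stood at 1979 and 3280 CPM in the P1 female and male, 1424 and 1945 at P7, and 1485 and 2195 after hyperoxia. It was lower in the female than in the male of each group. Plvap was 1578 and 825 CPM at P1, 1197 and 1100 at P7, and 1874 and 2270 after hyperoxia, so both hyperoxia mice were above the other 4. Kit, the stem cell factor receptor, was 432 and 274 CPM at P1, 773 and 387 at P7, and 504 and 240 after hyperoxia, with the female the higher of each pair. Aplnr, the apelin receptor, was 315 and 233 CPM at P1, 778 and 329 at P7, and 265 and 239 after hyperoxia. The P7 female was the highest for both receptors. None of the 4 genes was called in any of the 3 tests across mice described further on. Those tests of age, hyperoxia and sex called only 0, 2 and 4 of 13969 genes, so this does not show steady levels. At unadjusted edgeR p under 0.05, 0 of the 4 differed with age and 1 was lower after hyperoxia. By sex, 1 was higher and 1 lower in females at that threshold. On the mouse genome GRCm38 with the GENCODE M21 annotation, which may not be the build behind the counts, Gpihbp1 lies at chr15:75596628-75599481 (plus strand), Plvap at chr8:71497765-71511752 (minus), Kit at chr5:75574916-75656722 (plus) and Aplnr at chr2:85136225-85139923 (plus).

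None of the 4 genes marked Early cells alone. Car4+ capillaries held little of any of them: over the 6 mice Gpihbp1 was 2052 CPM ± 673 in Early and 271 ± 71.3 in Car4+ cells (SD, n = 6), Plvap 1474 ± 537 against 51.4 ± 50.1, Kit 435 ± 193 against 9.55 ± 7.95, and Aplnr 360 ± 209 against 17.6 ± 18.6. All 4 were more than 2-fold higher in Early cells in each of the 6 mice. Venous endothelium held less Gpihbp1 (514 CPM ± 331) and Kit (67.5 ± 32.8), but its Aplnr was higher in all 6 mice (789 ± 632) and its Plvap in 5 of 6, where the remaining mouse had a log2 ratio of 0.02. Proliferative endothelium was close, with Gpihbp1 at 1293 CPM ± 355, Plvap at 1393 ± 477, Kit at 301 ± 192 and Aplnr at 232 ± 130, and only Gpihbp1 was higher in Early cells in all 6 mice. Arterial EC I cells, measured in 5 mice, had more Plvap in all 5 (2617 CPM ± 1033, SD, n = 5). Lymphatic cells, in 3 mice, had almost no Aplnr, at 0.0451 CPM ± 0.0781 (SD, n = 3).

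**Figure D2:**
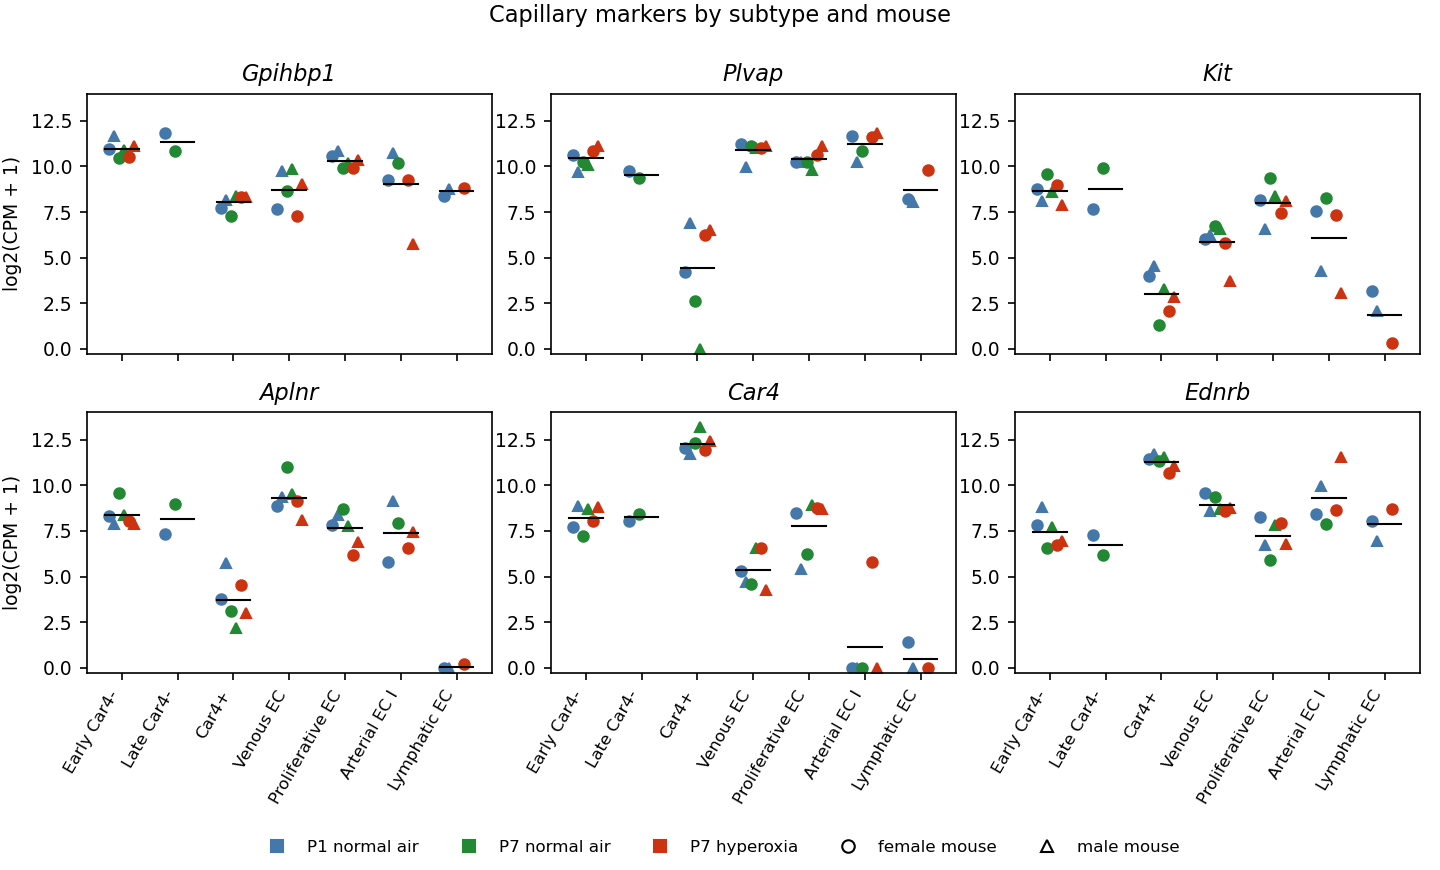
Levels of Gpihbp1, Plvap, Kit, Aplnr, Car4 and Ednrb in 7 subtypes (y axis, log2 of CPM + 1), with 1 point per mouse with at least 8 cells of the subtype and a line at the mean. Gpihbp1 and Kit set Early cells above Car4+ and venous cells, Plvap and Aplnr are as high or higher in venous cells, and Car4 and Ednrb are highest in Car4+ capillaries.

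Single cells of the label carried these genes together. After each cell was thinned to 50000 reads, which left out 4 shallower cells, 724 of 829 Early cells (87.3%) had a read of at least 3 of the 4 genes, 465 (56.1%) had all 4 and 2 had none. All 4 were read in 66.7% and 38.3% of cells in the P1 female and male, 67.3% and 70.3% at P7, and 61.6% and 26.2% after hyperoxia. The P1 male and the hyperoxia male were thus low, and the range across mice was wide. Gpihbp1 was read in 90.5% to 100% of the cells of a mouse and Plvap in 92.5% to 99.3%, while Kit ran from 57.1% to 92.5% and Aplnr from 44.4% to 80.9%, lowest for both receptors in the hyperoxia male. All 4 genes were read together in 3 of 198 Car4+ cells (1.52%), 30.1% of venous and 48.0% of proliferative cells of the same mice. The shares were 9.09% of Late Car4-, 17.9% of arterial EC I and 0 of 65 lymphatic cells.

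Car4, the enzyme whose absence names the label, was not at 0. Early cells held 208 and 475 CPM of Car4 in the P1 female and male, 149 and 413 at P7, and 259 and 450 after hyperoxia, against 5251 CPM ± 2152 (SD, n = 6) in Car4+ capillaries. At 50000 reads, 218 of 829 Early cells (26.3%) had a Car4 read, compared with 26.6% of proliferative, 18.2% of Late Car4-, 9.82% of venous, 2.99% of arterial EC I and 1.54% of lymphatic cells. The share in proliferative cells was therefore as high as in Early cells. The Early cells with a read held a median of 31 Car4 reads, and Car4+ cells held a median of 227. Only 3 Early cells, all from the hyperoxia male, reached that median, and 45 (5.43%) reached the tenth percentile of Car4+ cells, 75.1 reads. These 45 were spread over all 6 mice, with 4 and 9 at P1, 6 and 10 at P7, and 6 and 10 after hyperoxia.

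Early cells were next set against Car4+ capillaries of the same mouse. Of 9137 genes with a mean of at least 10 CPM in either label, 269 (2.94%) were more than 2-fold higher in Early cells in each of the 6 mice and 89 (0.974%) were more than 2-fold lower, or 137 without the P1 male. A gene higher here can be read more often in another label: at 50000 reads Fbln2 was read in 29.1% of Early, 98.2% of venous and 0.505% of Car4+ cells. The leading genes, ranked by the smallest ratio over mice, were Fbln2, a fibulin of the basement membrane, at 116 CPM ± 69.6 in Early cells and 0.0374 in Car4+ cells, Cxcl12, the chemokine ligand of CXCR4, at 301 ± 197 against 0.534, and Ltbp1, which stores latent TGF-beta in matrix, at 70.3 ± 30.5 against 0.170. Glp1r, the incretin receptor, stood at 67.4 CPM ± 31.5 against 0.0754, and Gpr182, an atypical chemokine receptor, at 290 ± 68.5 against 5.09. Edn1, the vasoconstrictor endothelin-1, was 192 CPM ± 130 against 3.09, and Npr3, the natriuretic peptide clearance receptor, 69.5 ± 16.7 against 1.00. Low Car4+ levels rest on few cells, since that label held 17 to 59 cells per mouse. Also among the leaders were Mcf2l, Tinagl1, Camk4, Stom and Prcp. In the other direction the leaders were Fibin (12.9 CPM in Early, 419 in Car4+ cells), Rgs6, Ednrb, the endothelin B receptor (201 ± 132 against 2593 ± 610), Chst2, Car4, Enho, Tex14 and the transcription factor Tbx2 (56.9 ± 29.7 against 554 ± 121), followed by Rtn1, Chst1, Tbx3os1 and Dnaic1. So the ligand Edn1 was on the Early side and its receptor Ednrb on the Car4+ side in every mouse.

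Ligand and receptor also lay apart in 2 other pairs. Apln, the ligand of Aplnr, was 137 CPM ± 134 in Early and 609 ± 222 in Car4+ cells, a mean log2 ratio of -2.62, while Aplnr had 4.64. Kitl, the ligand of Kit, was 248 CPM in Early and 1045 in Car4+ cells, at -2.02, while Kit had 5.64. Among receptors and ligands of the VEGF and angiopoietin pathways, 4 of 11 measured genes were past 2-fold higher in Early cells in every mouse, namely Tek, the angiopoietin receptor (523 CPM against 32.6), Ptprb, the phosphatase that restrains it (1007 against 46.0), Vegfc (103 against 5.94) and Vegfa (22.3 against 0.953). Kdr, the main VEGF receptor, was the 1 gene lower, at 585 CPM ± 190 against 2272 ± 619. The median log2 ratio of the list was 0.76 beside 0.39 for all genes. Of 12 general capillary genes, 10 were past 2-fold higher, with a list median of 4.66. Of 9 measured Car4+ capillary genes, 8 were past 2-fold lower, with a median of -3.87, and Prx was the exception. Of 7 measured arterial genes, 4 were past 2-fold higher, Gja4, Gja5, Hey1 and Vegfc, of which the connexin Gja4 stood at 569 CPM ± 284 against 8.90. Venous genes were on the Early side too, with Ephb4 (182 CPM against 42.0), Nr2f2, Prss23 and Vwf among 6 measured.

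**Figure D3:**
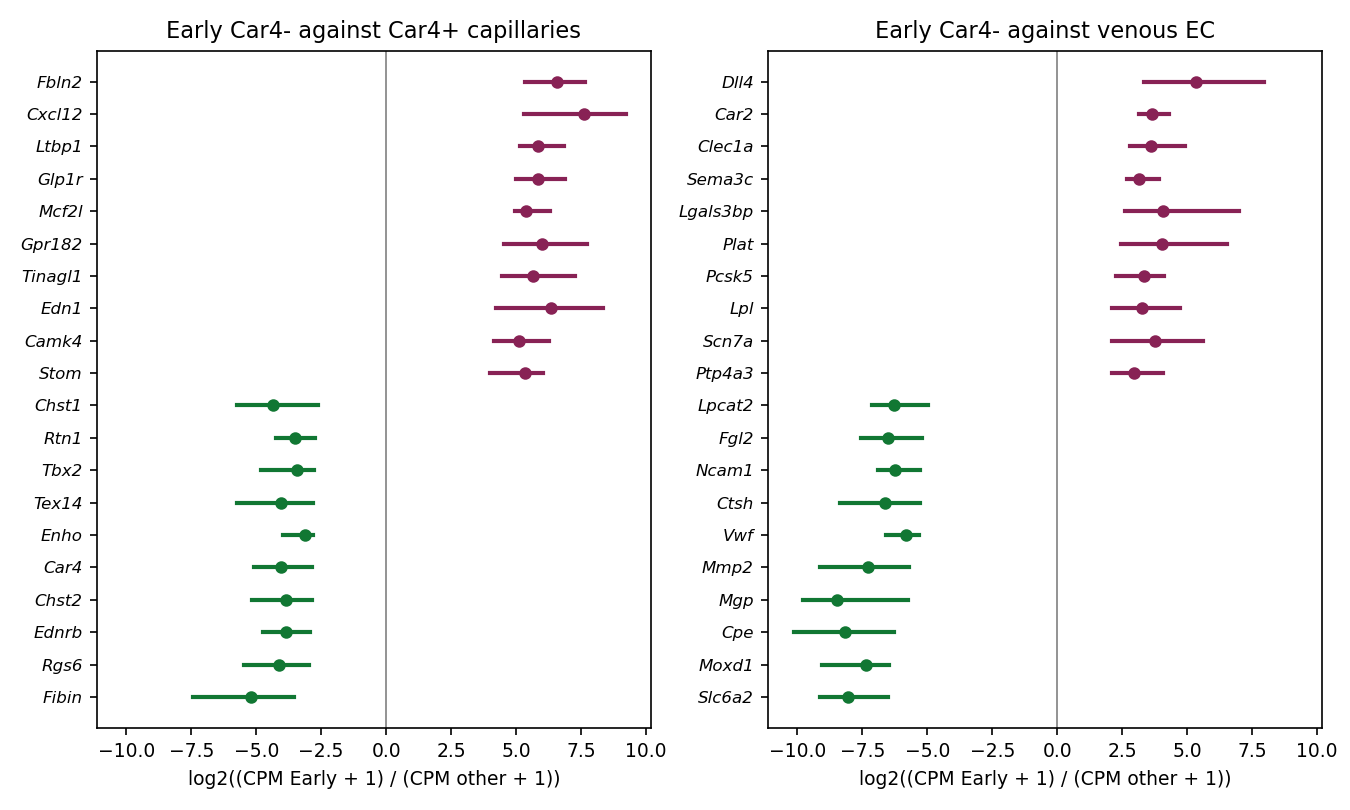
Leading genes of Early Car4- cells against Car4+ capillaries (left) and venous endothelium (right), as log2((CPM in Early + 1)/(CPM in the other label + 1)) on the x axis, where the point is the mean of 6 mice and the bar runs from the lowest to the highest mouse. Ratios of the genes shown lie on 1 side of 0 in all 6 mice, with Fbln2 and Cxcl12 farthest right among Early genes on the left panel and Slc6a2, Mgp and Cpe farthest left on the right panel.

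Against venous endothelium, 154 of 9327 genes (1.65%) were past 2-fold higher in Early cells in each of 6 mice and 182 (1.95%) past 2-fold lower. Higher genes were led by Dll4, a Notch ligand of arterial and sprouting cells, at 160 CPM ± 58.5 in Early and 4.98 in venous cells. Car2, another carbonic anhydrase, was 833 CPM ± 266 against 65.6, Clec1a, a C-type lectin-like receptor, 893 ± 87.6 against 82.0, and Sema3c, a semaphorin, 493 ± 195 against 55.3. Lipoprotein lipase itself, Lpl, was 172 CPM ± 40.7 against 20.2, and the fatty acid receptor Cd36 was 933 ± 305 against 182. The sodium channel gene Scn7a (1868 CPM against 222), the plasminogen activator Plat (118 against 11.6), Lgals3bp, Pcsk5, Ptp4a3, Adgrl3 and Prss12 completed the leaders. The lower genes were led by Slc6a2, the noradrenaline transporter, at 0.00874 CPM in Early cells and 320 ± 194 in venous cells, and also held Moxd1, Cpe (2.14 against 1041), Mgp, Mmp2, Ctsh, Ncam1, Fgl2, Lpcat2, Pgm5 and Mfap5. Vwf, von Willebrand factor, was 41.6 CPM ± 14.6 against 2414 ± 756, and 10.5% of Early cells had a Vwf read at 50000 reads against 98.8% of venous cells. Of 10 venous genes, 6 were past 2-fold lower (median log2 ratio -2.84, all genes 0.14), and of 12 general capillary genes 6 were past 2-fold higher (median 2.47).

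Notch genes split between these labels. Dll4, Hey1 (128 CPM against 10.3), a Notch target, and the receptor Notch4 (185 against 42.6) were past 2-fold higher than in venous cells in all 6 mice, while the ligand Jag1 was lower (102 against 356), out of 10 measured Notch genes. Of 18 endothelial transcription factors, 3 were past 2-fold higher, Sox17 (341 CPM against 74.0), Meox1 (59.1 against 6.27) and Tbx3 (254 against 44.9). Another 3 were lower, the venous factor Nr2f2 (56.3 against 473), Foxc1 (0.140 against 46.9) and Foxo1 (106 against 295). Fatty acid binding proteins went against Lpl and Cd36, since Fabp4 was 1.81 CPM in Early and 304 in venous cells and Fabp5 12.9 against 519.

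Proliferative endothelium held more of the proliferation genes. Of 9346 genes, 20 (0.214%) were past 2-fold higher in Early cells in each of 6 mice and 278 (2.97%) past 2-fold lower. The higher count rested on each mouse, with 51 genes without the P7 male, 43 and 39 without the hyperoxia female and male, 37 without the P7 female, and 35 and 31 without the P1 male and female. Of 12 proliferation genes, 10 were past 2-fold lower (median log2 ratio -6.34, all genes 0.21). Among them Mki67 was 8.75 CPM ± 5.40 in Early and 836 ± 312 in proliferative cells, and the ubiquitin-conjugating enzyme gene Ube2c and the survivin gene Birc5 were 2.23 against 1291 and 6.29 against 966. At 50000 reads, Mki67 was read in 3.98% of Early cells and 89.3% of proliferative cells. Pcna and Mcm2, which act in replication, were the proliferation genes not past 2-fold. Of the 12 general capillary genes, 0 were past 2-fold in either direction, beside a list median of 0.66. Only Cd1d1, an antigen-presenting protein for lipids, met the level and detection rule among higher genes, at 118 CPM ± 47.3 against 40.3.

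Arterial EC I cells could be set against Early cells in 5 mice, with 203 of 9286 genes (2.19%) past 2-fold higher in Early cells and 50 (0.538%) lower. The lower genes were led by Atp13a3 and Adgrg6 and included the arterial connexin Gja5 (15.5 CPM against 351), elastic fibre genes Fbln5 (95.5 against 2122), Fbn1 and Ltbp4, and Cxcl12, at 259 CPM ± 188 in Early and 5316 ± 2043 in arterial cells (SD, n = 5). Cxcl12 was therefore high against Car4+ cells and low against arterial ones. Gxylt2, at 97.2 CPM ± 45.3 in Early cells, is listed at 0 CPM in all 5 arterial sums, each of 9 to 16 cells. Against lymphatic cells, 617 of 9841 genes (6.27%) were past 2-fold higher and 795 (8.08%) lower in 3 mice, among them Ly6a (1839 CPM in Early against 0.180) and Aplnr on the Early side, and Reln, Ccl21a and Mmrn1 (4.87 against 2058) on the lymphatic side. Prox1, which sets lymphatic identity, was under 0.1 CPM in Early cells of 5 mice and 8.65 CPM in the P1 female.

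No gene was particular to Early cells at a 2-fold margin. Of 10419 genes, 0 (0%) were more than 2-fold above the highest of Car4+, venous and proliferative cells in all 6 mice, and 52 (0.499%) were above that highest value at all. Acer2, an alkaline ceramidase that feeds sphingosine 1-phosphate synthesis, led these, with 463 CPM ± 134 in Early cells and 239 for the highest of the other 3 labels, and a smallest log2 ratio of 0.73. Acer2 was nevertheless higher in arterial EC I cells, at 809 CPM ± 291 in 5 mice. Peg3, an imprinted zinc finger gene, was 643 CPM ± 182 against 407, and Epas1, which encodes hypoxia-inducible factor 2 alpha, 1544 ± 215 against 1081. Rgcc was 598 CPM ± 83.0 against 427, and Wfdc1 309 ± 186 against 148. Glp1r, Gpihbp1, Abcb1a (a drug efflux pump), Efnb1 (an ephrin ligand), Mical2, L3mbtl3, Bik, BC028528, Mcf2l and Dnah8 made up the rest of the 15 genes named by rule. Arterial EC I, lymphatic and Late cells were outside this comparison, so Acer2 was not the only exception. After thinning, Wfdc1 was read in a larger share of arterial EC I than of Early cells, and Bik and Mical2 of lymphatic cells. L3mbtl3 (46.3% against 40.7%) and Abcb1a (40.3% against 37.0%) were also read in a larger share of arterial EC I than of Early cells. Glp1r was read in a smaller share of both arterial EC I and lymphatic cells. Gpihbp1 was higher by CPM in Late cells of both mice compared below.

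Late Car4- is the label of most capillary cells at P21. It also stood on some cells at earlier ages, 12 in the E18.5 female, 21 in the P1 female, 44 in the P7 female and 2 to 6 in each of the other 4 mice from P1 to P7 and hyperoxia. Within the P1 and P7 females, 2460 of 9193 genes (26.8%) were past 2-fold higher in Early cells and 244 (2.65%) lower, and the median log2 ratio of all genes was 1.10. The leading higher genes were widely expressed ones, such as the lysosomal beta-galactosidase Glb1 (78.6 CPM in Early), the ribosomal protein gene of mitochondria Mrps10 (63.6) and the transcription factor Usf1 (62.5), each listed at 0 CPM in both Late sums, and further Spns1, Ppie, Eif2b1, Tspan17, Snapc3, Scarb2, Cnp and Casp8ap2. Lower genes were led by Emp2, Mmrn2, Eif2s2 and B4galt1. Genes per cell moved with these labels. At 50000 reads, Late cells had a median of 945 genes in the P1 female and 762 in the P7 female, and Early cells of the same mice had 3160 and 2360. Their median reads per cell were 273524 and 478914 for Late against 425268 and 950650 for Early. The part of the lower gene number in these differences was not tested. By CPM the 4 marker genes did not part the labels: Gpihbp1 was higher in Late cells in both mice (means 2738 against 1701 CPM), Plvap and Aplnr were higher in Early cells in both, Kit went either way, and 0 of the 4 were past 2-fold in both mice. By detection they did: at 50000 reads over the 6 mice, all 4 were read together in 9.09% of 77 Late cells and 56.1% of Early cells. Kit was read in 37.7% of Late and 82.1% of Early cells. The part of the lower gene number in this was not tested either. Of 13 imprinted growth genes, 9 were measured here and 4 were past 2-fold higher in Early cells, Igf2, Peg3, Plagl1 and Grb10, with a list median of 1.13 near that of all genes.

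**Figure D4:**
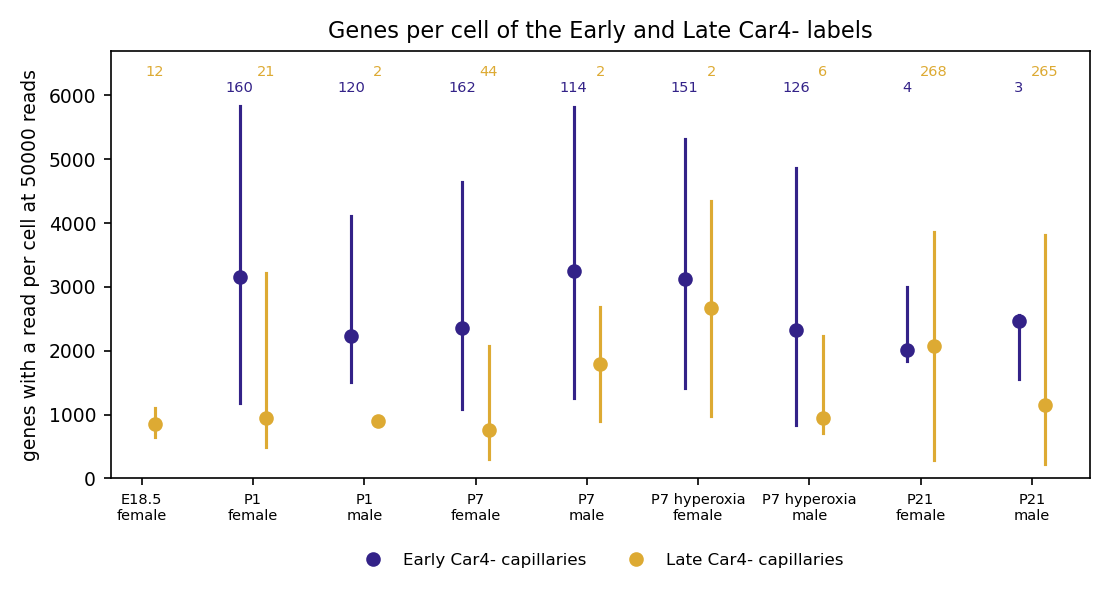
Genes with a read per cell after thinning to 50000 reads (y axis) in Early and Late Car4- cells of each mouse, as the median (point) and the range from lowest to highest cell (bar), with the number of cells above. Late cells of the P1 and P7 females have medians of 945 and 762 genes against 3160 and 2360 in Early cells of the same mice, while the 4 and 3 Early cells at P21 lie within the range of the Late cells there.

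Of the few Early cells outside P1 and P7, those at P21 held reads of all 4 markers in each mouse. The E18.5 cell held Gpihbp1 and Kit only, and no value has a replicate behind it. The 4 cells of the P21 female held 6299 CPM of Gpihbp1, 2463 of Plvap, 706 of Kit and 385 of Aplnr, and the 3 cells of the P21 male held 926, 1350, 955 and 801. Late cells of the same mice held 2713 and 2755 CPM of Gpihbp1 and 2553 and 1922 of Plvap. They also held 818 and 1040 CPM of Kit and 385 and 399 of Aplnr. The E18.5 cell had 585 CPM of Gpihbp1 and 225 of Kit, and no read of Plvap or Aplnr. Its Car4 was 727 CPM, against 9.96 in Late cells of that mouse.

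Early cells of the 6 mice were also compared among themselves. The summed level of 10 pan-endothelial genes ran from 12933 to 15672 CPM, and that of the 12 general capillary genes from 8635 to 10894 CPM. The CD31 sort and the label itself favour such sums, so they do not test a shared programme. A sum can also hide members that vary, and Gpihbp1 alone ran from 1424 to 3280 CPM. The BMP and Notch pathways, which hold vessel calibre and arteriovenous identity, were expressed through their receptors. The BMP receptors Acvrl1 and Bmpr2 stood at 806 CPM ± 179 and 466 ± 99.9 (SD, n = 6), and Notch1 and Notch4 at 319 ± 86.2 and 185 ± 21.2. Eng, a co-receptor of Acvrl1, ranged more widely, with 698 and 474 CPM in the P1 female and male, 1087 and 1195 at P7, and 1738 and 1537 after hyperoxia. Its 3 groups did not overlap, which is a description only. Between hyperoxia and P7 alone, 18.7% of all genes were higher and 15.8% lower without overlap. Of the transcription factors, Foxf1, a lung mesoderm factor needed in its capillaries, was 969 CPM ± 307, with the P1 male the low value at 382. Epas1 ran from 1280 to 1816 CPM. Calcrl and Ramp2, the 2 parts of the adrenomedullin receptor, were at 1840 CPM ± 370 and 2372 ± 1381, and Adm, the ligand, at 3.98 ± 4.31.

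Markers of other cell types were low in all 6 mice. The summed level of 8 mesenchymal genes was 6.54 to 48.0 CPM, of 8 immune genes 8.003 to 38.8 CPM, and of 5 measured erythroid genes 0.702 to 12.6 CPM. The erythroid sum was 0.702 and 0.732 CPM at P7 and 5.48 and 4.81 after hyperoxia, and its part in the hyperoxia values was not tested. Ptprc (CD45) stayed under 0.5 CPM and Dcn under 0.02 CPM. The 8 epithelial genes summed to 30.6 to 118 CPM, mostly from the surfactant gene Sftpc (20.1 to 105 CPM), highest in the hyperoxia male, while Epcam was under 0.1 CPM in 5 mice and 1.34 CPM in that mouse.

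From P1 to P7, in normal air, no gene was called. No run held CD31-gate Early cells of both ages, so differences between P1 and P7 and those between runs cannot be told apart. In edgeR's quasi-likelihood test with Benjamini-Hochberg adjustment over 13969 genes, 0 (0%) passed an adjusted p of 0.05, the smallest adjusted p was 0.305, and 1579 genes had an unadjusted p under 0.05, 833 higher at P7 (5.96% of genes) and 746 lower (5.34%). DESeq2 called 478 genes and limma 5 on the same mice, and edgeR without the P1 female called 280. So the count depended on the tool and on the P1 female. The values that follow are not calls. Wif1, a secreted Wnt inhibitor, was 26.6 and 6.31 CPM in the P1 female and male and 163 and 187 at P7, a log2 difference of 3.40 (SE 0.55, edgeR adjusted p = 0.305). Hpgd, which breaks down prostaglandins, was 825 and 277 CPM at P1 and 3067 and 2970 at P7. Plat was 33.2 and 31.1 CPM at P1 and 203 and 142 at P7. Groups without overlap were a condition for naming a gene, so the order of the P1 and P7 mice adds no support. H2-Q7, Hdhd2, Tspan12, Erp44, Dld, Farsb and Atp11a were the other higher genes named by rule, with log2 differences of 1.78 to 2.28.

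Klf2, a factor switched on by blood flow, was 708 and 662 CPM at P1 and 228 and 235 at P7 (log2 -1.67, SE 0.36, edgeR adjusted p = 0.338). Sult1a1, a sulfotransferase, was 45.1 and 148 CPM at P1 and 3.61 and 5.20 at P7, with log2 -4.64. Ly6c1, a surface protein of capillary endothelium, was 1096 and 2981 CPM at P1 and 265 and 402 at P7, with log2 -2.79. As above, both P1 mice lying above both P7 mice was a condition for naming these 3 genes. The remaining lower genes were Chmp4b, Chst15, Rtl8a, Hist1h1e, Kdm5b, Slc39a1 and S100a1. Of 12 vasomotor and shear genes, 4 were lower at unadjusted p under 0.05 (Klf2, Klf4, Ramp2 and Adm) and 1 higher (Ptgis), with a median of -0.76 beside -0.03 for all genes. Of 12 proliferation genes, 3 were higher (Top2a, Ccnb1 and Tyms) and 0 lower, with a median of 1.32. Of 12 interferon-stimulated genes, 0 were higher and 3 lower (Ifit3, Bst2 and Rtp4), with a median of -0.74. Of 12 NRF2 targets, 4 were higher (Txnrd1, Gsr, G6pdx and Cat) and 1 lower (Osgin1), with a median of 0.91. None of the list genes was called. Over all genes, 5.96% were higher and 5.34% lower at unadjusted edgeR p under 0.05. The lists described here are some of 26, and others also held such genes. Of 9 antigen presentation genes 3 were higher and 1 lower, of 5 lymphatic genes 0 and 2, and of 11 Notch genes 0 and 2.

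At P7, edgeR's quasi-likelihood test called 2 of 13969 genes (0.0143%) between hyperoxia and normal air. DESeq2 called 178 and limma 19, and edgeR called 14 and 20 without the P1 female or male and 0 without any 1 of the P7 or hyperoxia mice. Serpine2, a protease inhibitor also known as protease nexin-1, was 37.1 and 27.8 CPM in the P7 female and male and 359 and 333 after hyperoxia, and P1 mice had 9.58 and 11.5. It rose by 3.38 on the log2 scale (SE 0.41, edgeR quasi-likelihood, adjusted p = 0.0292). A Serpine2 read was found in 8.02% and 10.8% of P7 cells and in 55.0% and 42.1% of hyperoxia cells at 50000 reads, so the higher sum came with more cells. H2-Q7, a class I gene of the histocompatibility complex, was 167 and 153 CPM at P7 and 17.2 and 10.3 after hyperoxia, with 41.5 and 33.9 at P1. It fell by 3.58 on the log2 scale (SE 0.44, edgeR adjusted p = 0.0292), and its read was in 40.1% and 49.5% of P7 cells and 8.61% and 3.17% of hyperoxia cells. Near-identical H2-Q genes may share reads, so which of them fell is uncertain. Serpine2 lies at chr1:79794197-79861180 (minus strand) and H2-Q7 at chr17:35439155-35443773 (plus) on GRCm38. Both calls held in each setting that kept the P7 and hyperoxia mice, with adjusted p up to 0.0444. Both were lost without any 1 of the P7 or hyperoxia mice, where a lone mouse is assumed to vary like the other groups, with adjusted p from 0.161 to 0.979.

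Serpine2 was also higher after hyperoxia in other labels of the same mice. It went from 579 to 1206 CPM in venous cells of the female pair and from 353 to 967 in the male pair, from 46.3 to 499 and 233 to 428 in proliferative cells, and from 0.0480 to 35.4 and 0.776 to 61.2 in Car4+ cells. H2-Q7 in proliferative cells went from 205 to 79.6 CPM and from 218 to 79.8. Whether the size of either change differs between labels was not tested.

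The p53 targets, genes that this factor switches on after DNA damage, lay high under hyperoxia as a list. None of its 13 tested genes was called by edgeR, but 9 were higher and 0 lower at unadjusted p under 0.05, where 2.51% of all genes were higher and 2.73% lower, and 9 by DESeq2 and 10 by limma. For 11 of 13 both hyperoxia mice were above both P7 mice, which held for 18.7% of all genes, while 15.8% of all genes were lower without overlap. The median log2 difference of the list was 2.13 beside -0.02 for all genes. Cdkn1a, the cell cycle inhibitor p21, was 215 and 211 CPM in the P7 female and male and 2344 and 3409 after hyperoxia, with 339 and 1323 at P1 (log2 3.73, SE 0.66, edgeR adjusted p = 0.283). The P1 male was above both P7 mice and below both hyperoxia mice. Cdkn1a passed the threshold without the P1 female (edgeR adjusted p = 0.00137), without the P1 male (0.000723), with only P7 and hyperoxia fitted (0.00542), in DESeq2 (9.38e-07) and in limma (0.0364), and its adjusted p went up to 1 without the P7 female. Bax, which promotes cell death, was 156 and 163 CPM at P7 and 558 and 734 after hyperoxia, and Phlda3, an inhibitor of AKT, 72.9 and 106 against 303 and 485. Zmat3, an RNA-binding target of p53, was 5.27 and 6.35 CPM at P7 and 81.0 and 94.99 after hyperoxia. Aen, Ccng1, Sesn2, Trp53inp1 and Eda2r were the other members at p under 0.05, and Gdf15, Fas, Mdm2 and Bbc3 the tested ones that were not, of which Bbc3 was 25.7 and 43.3 CPM against 25.7 and 38.5. In CD31-gate cells alone, the male pair from the same run had 12 of 13 genes higher after hyperoxia, 10 of them past 2-fold, and the female pair 13 and 10, where 11.4% and 10.9% of all genes were past 2-fold higher.

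Other genes were named by a rule that required both hyperoxia mice on 1 side of both P7 mice, so that order is no result. Of all genes, 18.7% were higher and 15.8% lower in that way, and these other genes were not called. Icam1, a leukocyte adhesion molecule, was 66.3 and 46.6 CPM at P7 and 394 and 200 after hyperoxia. Lyve1, a hyaluronan receptor, was 886 and 734 CPM at P7 and 4025 and 3693 after hyperoxia, with 2059 and 2557 at P1. Lyve1 is also a lymphatic marker, and the summed level of 8 lymphatic genes was 965 and 920 CPM at P7 and 4256 and 4000 after hyperoxia, nearly all from Lyve1 and Flt4, while Prox1 was at most 0.0421 CPM in those 4 mice. Ntrk2, the receptor of BDNF, was 151 and 113 CPM at P7 and 14.1 and 7.10 after hyperoxia, with 52.9 and 17.5 at P1 (log2 -3.68, SE 0.57, edgeR adjusted p = 0.198). Ephx1, Mmrn2, Tinagl1, Snhg15 and Sulf2 were the other higher genes, with log2 differences of 1.96 to 3.22. Cdk19, Fbln2, Sparcl1, Slc6a6, Tubb2b, Grrp1, H2-K1 and Tmeff1 were lower by rule. Cxcl12 was 593 and 513 CPM at P7 and 150 and 175 after hyperoxia over all gates, but in CD31-gate cells the P7 male had 206, so 4 cells of the other gates carried most of that mouse's Cxcl12 and the male pair differed by -0.23 in log2. In the imprinted list, Igf2 (29.4 and 10.2 against 0.516 and 0.295 CPM), H19, Mest and Cdkn1c were lower at unadjusted p under 0.05 and Igf2r was higher, of 11 tested, with a median of -1.11. Of the 4 marker genes, Aplnr was lower at unadjusted p under 0.05, and its ligand Apln was 79.1 and 77.4 CPM at P7 and 374 and 219 after hyperoxia. The test of age and that of hyperoxia share the 2 P7 mice, so values for genes such as H2-Q7, Lyve1, H19 and Cxcl12 in the 2 tests are not independent.

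**Figure D5:**
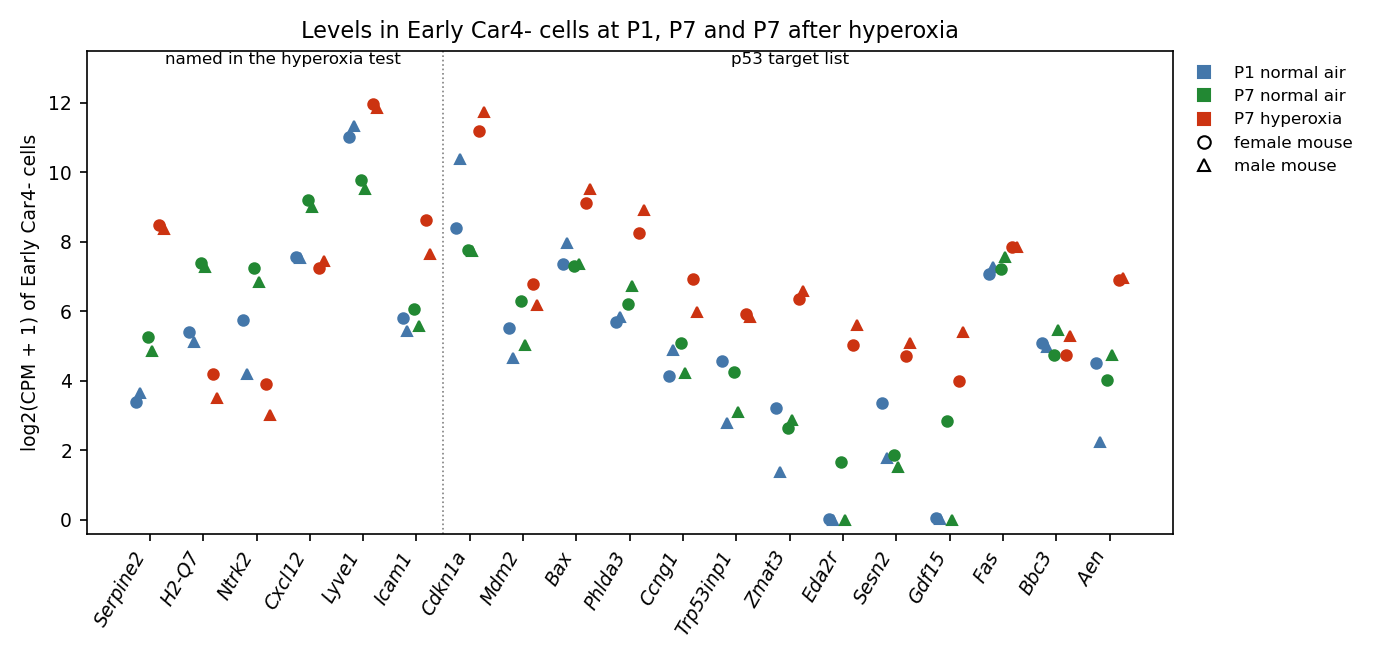
Levels in Early Car4- cells of each mouse (y axis, log2 of CPM + 1) at P1, P7 and P7 after hyperoxia, circles for females and triangles for males, for genes named in the hyperoxia test and for the 13 tested p53 targets. Serpine2, Cdkn1a, Zmat3 and Phlda3 are higher and H2-Q7 and Ntrk2 lower in both hyperoxia mice than in both P7 mice, and Bbc3 overlaps.

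Female and male mice differed in 4 genes of 13969 (0.0286%) called by edgeR, with group as a term in the fit. DESeq2 called 442 and limma 42, and edgeR called 22 on thinned cells and 29 and 28 without the hyperoxia female or male. Xist, the RNA that silences 1 X chromosome in females, was 289, 378 and 510 CPM in females and at most 0.0526 in males (edgeR quasi-likelihood, adjusted p = 9.46e-07), and its antisense partner Tsix followed it, which reads counted without strand could not tell apart. The Y-linked Eif2s3y and Uty were called on the male side (adjusted p = 0.0245 for both). These 4 genes separated the labelled sexes without overlap in all 6 mice. The Y-linked Ddx3y and Kdm5d were not called (edgeR adjusted p = 0.286 and 0.268), with males at 39.0 to 55.7 and 11.4 to 32.9 CPM. The P1 female held 5.01 CPM of Ddx3y, 1.35 of Kdm5d and 0.642 of Eif2s3y, where the other females were at most 0.0186. The source of those reads was not tested. At unadjusted p under 0.05, 662 genes (4.74%) were higher and 648 (4.64%) lower in females. Among those not called, Car4 was 208, 149 and 259 CPM in the P1, P7 and hyperoxia females and 475, 413 and 450 in the males (log2 -1.26, SE 0.26, edgeR adjusted p = 0.268), and the Car4+ capillary genes Tbx2 and Ednrb were also lower in females at unadjusted p under 0.05. Kit was higher in the female of each pair (log2 0.80, edgeR adjusted p = 0.443). Jag1, Zc3hav1, Commd2, Ccdc85b, Gnl3l, Cnih4, Twf1 and Rrn3 were the other lower genes, and Dusp6, Rab5a, Topors, Atad1, Fam49b, Rnf13, Cd164, Asah1, Rnf115 and Abcg2 the higher ones. As the runs did not overlap, these differences and those between runs cannot be told apart.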

How the data were processed

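Single endothelial cells of distal mouse lung were sequenced on plates, and each deposited sample is 1 cell. The authors deposited whole-number read counts per gene and cell for 18072 genes (103 of them 0 in every cell) and a table of each cell's subtype, per the file headers. STAR 2.5.2b, HTSeq 0.10 and the build name GRCh38 are named in the submitters' processing notes. That is a human build name, while the labels give mouse, so which build lies behind the counts is not established, nor whether counting used strand. Cell filters and doublet treatment are not given in the sources used here, and no doublet caller was run. Reads outside the count table were 7.25% to 14.2% of the stated coverage of Early cells per mouse.

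Counts were summed over the Early cells of each mouse. Age, hyperoxia and sex were tested in edgeR 4.0.16 by quasi-likelihood (TMM, filterByExpr, Benjamini-Hochberg, called at an adjusted p of 0.05). The code was first run on simulated counts with large planted changes and less spread between mice than found here. The common dispersion, edgeR's estimate of that spread, was 0.627 for age and hyperoxia and 0.576 for sex. That run therefore does not show the power of the tests on these data. Since 2 mice stood in each group, P1, P7 and hyperoxia shared 1 estimate of spread. P-values measure the spread between mouse names, which may be technical. Labels were compared within each mouse with at least 8 cells of both, as log2 ratios of CPM with a pseudocount of 1, over genes with a mean of at least 10 CPM. A difference counted only where it passed 2-fold in the same direction in every mouse. Detection was compared after thinning each cell to 50000 reads (25000 as an alternative, seed 1). Shares carry exact Clopper-Pearson 95% intervals, and a count of 0 allows 3 counts of the total. Alternatives were DESeq2 1.42.0, limma 3.58.1, other normalization, filters, gates and denominators, sex as a block, and leaving out each mouse. The replicate numbers of cells within a mouse pair nothing.

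Genes named in tests were the called ones (up to 15 per direction) and, where fewer than 10 were called, up to 10 per direction by smallest p, with groups not overlapping, at least 50 CPM and a read in 25% of cells of the higher group. In label comparisons they were up to 12 per direction by the smallest ratio over mice, and 15 for Early cells against the highest of 3 labels. Predicted, ribosomal and mitochondrial genes were left out, and 1 gene that the rule named is not reported here. The members and the 26 gene lists (247 of 250 genes in the table) were chosen with earlier results of these data known.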

Additional observations from a re-analysis of the deposited data

Results flagged for a closer look

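The Early share of CD31-gate cells moved in opposite directions in the female and male pairs. From P7 in normal air to P7 after hyperoxia it was 6.72 points higher in the female pair and -5.39 points in the male pair. From P1 to P7 the difference was -1.73 points in the female pair and 3.28 points in the male pair. Plvap in Early cells did the same with age, at a log2 ratio of -0.40 between the P7 and P1 females and 0.41 between the males. With 1 mouse of each sex per group, none of these differences between pairs was tested.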

How the results depend on the processing

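Counts of called genes depended on the tool. DESeq2 called 478 genes for P7 against P1, 178 for hyperoxia and 442 for sex, limma called 5, 19 and 42, and edgeR 0, 2 and 4. Thinned cells gave 6 for hyperoxia and 22 for sex, no filter gave 12 for sex, and a fit of only the groups compared gave 8 for hyperoxia. With sex as a block, which pairs the mice by sex only, P7 against P1 had 1 call and hyperoxia 3, among them both of the original 2. Both hyperoxia genes stayed called in all these settings. Leaving out 1 mouse gave 0 to 280 calls for P7 against P1 (280 without the P1 female, 1 without the hyperoxia male), 0 to 20 for hyperoxia (14 and 20 without the P1 female and male, 0 without either P7 or either hyperoxia mouse) and 5 to 29 for sex (29 and 28 without the hyperoxia female and male). No named gene changed direction in any setting. The naming rule largely fixed this, since it required groups without overlap and every setting reused the same mice. The p53 genes higher at unadjusted p under 0.05 numbered 7 to 11. Genes past 2-fold against Car4+, venous and proliferative cells stayed within 1.5 times of 358, 336 and 298 in total, though those higher than in proliferative cells went from 20 to between 9 (pseudocount of 5 CPM) and 51 (without the P7 male). Against Late cells the 2704 genes in both mice became 5385 and 6199 in 1 mouse alone. The mean Early share of 51.8% over 6 mice became 58.8% without proliferative labels and 93.2% of Early and Late cells together, and 51.1% to 52.5% without 1 mouse. The hyperoxia difference of 0.664 points turned to -0.534 without proliferative labels and became 7.91 of Early and Late cells and 1.86 over all gates, and P7 minus P1 to -4.20 points of Early and Late cells and -0.486 points over all gates. The causes were not tested. No setting changed whether a share difference could be called, since 2 mice against 2 cannot reach the threshold. Leaving each mouse out of the share and the settings of the p53 count were chosen after seeing the data. Low genes are limited by depth, with 28669835 reads in the shallowest mouse sum, and by the few cells of the rarer labels.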

Other observations

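Several gene groups varied among mice in ways no comparison above describes. Immediate early genes, which respond within minutes to handling and stimuli, ran widely in Early cells: Fos was 1605 and 1276 CPM in the P1 female and male, 390 and 1363 at P7, and 784 and 291 after hyperoxia. Egr1 was 630 CPM in the P1 female and 122 to 260 in the other 5 mice. The inducible heat shock gene Hspa1a stayed under 3 CPM in all 6. Of 12 measured immediate early and heat shock genes, 0 were past 2-fold against Car4+, venous or proliferative cells in every mouse. Only 0.214% to 2.97% of all genes were past 2-fold in a given direction against these labels, so that count says little. The list median log2 ratio was -0.44 against Car4+ cells (all genes 0.39), -1.19 against venous cells (0.14) and 0.43 against proliferative cells (0.21).

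Class II histocompatibility genes were near 0 in most mice, with H2-Ab1 at 16.4 CPM in the P7 female, 2.55 in the P7 male and at most 0.0210 in the other 4, and Cd74 under 0.4 in all. Among class I genes, H2-D1 was 1705 CPM ± 420 (SD, n = 6) and its light chain gene B2m 1614 ± 334, while H2-K1 ran from 324 to 998 CPM and H2-Q7 from 10.3 to 167. The water channel Aqp1 was 1097 and 507 CPM at P1, 824 and 435 at P7, and 207 and 370 after hyperoxia, so both hyperoxia mice were the lowest. Of all genes, 15.8% were lower in both hyperoxia mice than in both P7 mice.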
